A study of Mus musculus with 10 samples.

Results

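DNA methylation was examined at 10 genes that define fetal Sertoli and Leydig cells, the somatic cells that surround and supply the germ cells of the fetal testis. The genes were Amh, Dhh, Insl3, Inha, Sox9, Gata4, Nr5a1, Wt1, Star and Cyp11a1. They were chosen by name as known identity genes, and their CpGs were those of the deposited table that lay in the gene or within 2 kb upstream of it. These were 705 of 1348062 CpG cytosines, each strand being counted apart. The samples came from late-gestation fetal testes of F1 male mice whose C3H/HeN mothers drank tap water in the control group (n = 5) or tap water with sodium arsenite in the arsenic group (n = 5) during mid to late gestation. The testes of several embryos were pooled for a sample, and the cells were separated by magnetic beads with an antibody to Thy1.2 to enrich prospermatogonia, the fetal male germ cells that have stopped dividing. Both groups were of the same strain, and the reduced representation bisulfite sequencing (RRBS) read CpGs next to MspI cut sites. Levels are given as the percentage of methylated reads among the reads at a CpG, and the level of a gene part was the mean over its CpGs in each sample.

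Sertoli cells form the cords that enclose the germ cells. SOX9, WT1, GATA4 and NR5A1 are transcription factors that establish and keep these cells, NR5A1 and GATA4 acting in Leydig cells as well. AMH, the anti-Müllerian hormone, makes the female ducts regress, and DHH is the hedgehog signal from Sertoli cells that drives fetal Leydig cells to form. INHA is the alpha subunit of inhibin. Fetal Leydig cells make androgens, for which STAR brings cholesterol into the mitochondrion and CYP11A1 performs the first cut of its side chain, and they secrete INSL3, the hormone of testis descent. In general, CpG-rich starts of genes are unmethylated in most cell types whether or not the gene is in use, whereas gene bodies are mostly methylated outside germ cells that have undergone erasure.

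Parts were counted apart. A promoter held the CpGs within 1 kb either side of a transcript start of the GENCODE M21 basic set (mm10), a body the other CpGs between the ends of the gene record, and the upstream part the remaining CpGs up to 2 kb before its 5′ end. The 705 CpGs fell into 19 parts, namely 7 promoters, 9 bodies and 3 upstream parts. Amh, Star and Cyp11a1 had no promoter CpG in the table, and Insl3 had no body CpG apart from its promoter. In the GRCm38 reference these missing promoters were poor in CpGs, with 18 sites at Amh, 16 at Star and 16 at Cyp11a1, against 144 at Sox9. Each of these genes has 1 start and so a window of the same length. Wt1 had 202 sites and Nr5a1 171, over longer windows around 3 and 2 starts. The table covered 33.7% of the Wt1 promoter sites and 7.35% of those of Insl3, so each level stands for the covered sites only.

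The depth of the samples ranged from 44207245 to 60504881 CpG calls in the control and from 56551174 to 66570870 in the arsenic group. The members' median coverage ranged from 23 to 45 reads, with at least 10 reads at every CpG in every sample. A CpG with 5 of 10 reads methylated has a 95% Wilson interval of 23.7% to 76.3%, and such intervals cover counting error only. A level in a pool mixes cell types, so a larger share of a cell type and more methylation within it cannot be told apart. Germline gene promoters, which are largely free of methylation in male germ cells and methylated in somatic cells, averaged 54.4% ± 2.06 (SD, n = 5) in the control and 57.9% ± 7.94 (SD, n = 5) in the arsenic group over 13 of 16 genes with a CpG. Arsenic sample 1 was lowest at 45.7% and arsenic sample 5 highest at 67.6%. Maternally imprinted promoters, which male germ cells erase and somatic cells carry on the maternal copy, averaged 36.0% ± 3.21 in the control and 39.2% ± 11.2 in the arsenic group (SD, n = 5 each), again with arsenic sample 1 lowest (24.4%) and arsenic sample 5 highest (56.0%). The part of other cells in the levels below was not tested.

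The following stretches of the GRCm38 reference carry the findings at the hormone and ligand genes. They are printed 5′ to 3′ on the strand of the gene, with the CpG sites that the table holds on either strand in capitals.
Amh, last coding exon, chr10:80807260-80807364, plus strand, nearly free of methylation: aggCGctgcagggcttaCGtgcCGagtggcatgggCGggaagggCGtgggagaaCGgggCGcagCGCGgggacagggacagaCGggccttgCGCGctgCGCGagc
Inha, upstream of the start, chr1:75506077-75506193, plus strand, nearly free of methylation: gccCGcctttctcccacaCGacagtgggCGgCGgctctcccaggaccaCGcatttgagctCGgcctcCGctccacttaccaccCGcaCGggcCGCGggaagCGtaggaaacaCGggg
Inha, coding sequence after the start, chr1:75507326-75507446, plus strand, of intermediate level: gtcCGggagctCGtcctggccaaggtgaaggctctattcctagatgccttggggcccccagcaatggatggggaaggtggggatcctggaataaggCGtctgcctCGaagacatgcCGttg
Insl3, upstream of the start, chr8:71688748-71688835, plus strand, of low level: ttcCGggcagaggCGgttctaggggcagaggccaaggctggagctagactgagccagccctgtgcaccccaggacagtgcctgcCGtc
Insl3, intron, chr8:71690048-71690109, plus strand, of low level: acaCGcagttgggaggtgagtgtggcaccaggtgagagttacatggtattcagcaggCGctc
The Amh stretch holds 14 CpG sites in 105 bases and the upstream Inha stretch 13 in 117, whereas the coding Inha stretch holds 5 in 121 and the Insl3 stretches 3 in 88 and 2 in 62.

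At the member promoters the CpGs were mostly unmethylated in both groups. The median of the 7 promoter levels was 4.26%, with 6 of 7 under 10%, beside a median of 1.63% and 78.1% under 10% for the promoters of all protein-coding genes with a CpG (n = 14005). Wt1 (82 CpGs), Sox9 (41 CpGs) and Nr5a1 (36 CpGs) had levels of 1.218%, 0.848% and 2.51% over all samples, and those of Dhh, Inha and Gata4 were 4.26%, 8.94% and 9.30%. Insl3 was highest at 10.6%. The Inha and Gata4 means joined CpGs of unlike level. At Inha, 26 CpGs upstream of the start had 1.31% over all samples and 8 coding CpGs after it 33.7%. At Gata4, 3 CpGs at the start of a short transcript had 75.5%, and runs of 18 and 7 CpGs near the other starts 1.03% and 2.19%. A promoter mean under 10% therefore does not describe every start. The order Sox9, Wt1, Nr5a1, Dhh, Inha, Gata4, Insl3 is a description, since several neighbours overlapped from sample to sample, Inha ranging from 5.54% to 12.9% and Gata4 from 7.62% to 11.0%.

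**Figure D1:**
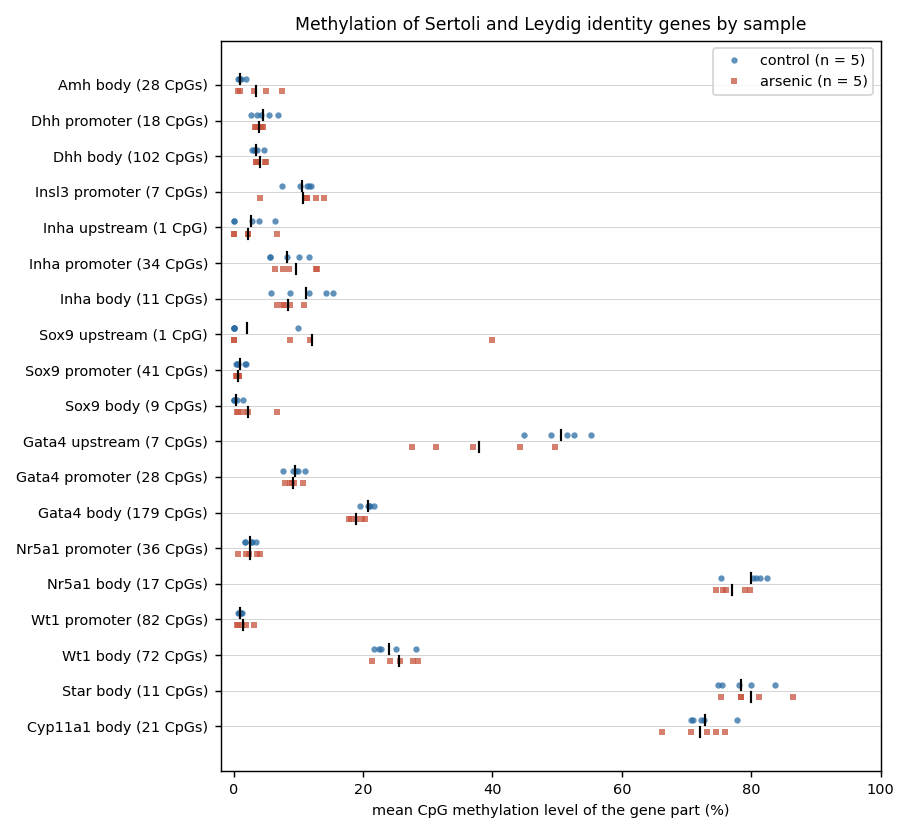
Methylation level (%) of each of the 19 gene parts on the horizontal axis, a point per sample (circles, control, n = 5; squares, arsenic, n = 5) and a black bar at each group mean. Promoters lie at the low end, the bodies of Nr5a1, Star and Cyp11a1 lie above 60%, and the groups overlap in every part, Gata4 upstream showing the widest gap between means.

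Among the ligands, Amh (chr10:80805243-80807648) was covered only in its last coding exon, 2020 to 2118 bases after its start. Its 28 CpGs averaged 1.03% ± 0.477 in the control and 3.44% ± 2.86 in the arsenic group (SD, n = 5 each). Arsenic samples 4 and 1 were highest at 7.48% and 5.02%, and the other 3 arsenic samples lay between 0.616% and 3.07%, beside a control range of 0.595% to 1.83%. The difference of 2.41 points did not pass the test (exact permutation p = 0.119, two-sided; limma adjusted p = 0.672), and it was 1.40 points without arsenic sample 4. The Amh body was among the 5.05% of all 14640 gene bodies that lay under 10%.

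Dhh (chr15:98891152-98898540, minus strand) was low along most of its length. The 18 promoter CpGs averaged 4.56% ± 1.65 in the control and 3.97% ± 0.544 in the arsenic group, and the 102 body CpGs 3.49% ± 0.734 and 4.08% ± 0.82 (SD, n = 5 each). Within the promoter, 11 CpGs of the first coding exon lay at 1.21% and 0.827%, and the CpG nearest a start, 93 bases before it, at 1.95% and 0.909%. The CpG at 658 bases before the start stood apart, at 45.6% ± 11.3 in the control and 34.3% ± 8.76 in the arsenic group. At the other end of the gene, 4 CpGs of the 3′ untranslated region had 26.5% and 30.3%. Of the 120 Dhh CpGs, 80 also lay inside another gene (Rhebl1 or Gm49442), so these values belong to both.

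Insl3 (chr8:71689214-71690575) lies inside Jak3, and its 7 CpGs are those in the 2 stretches printed above. Control samples 1 to 5 had 11.3%, 11.6%, 7.52%, 11.9% and 10.2%. Arsenic samples 1 to 5 had 11.3%, 11.4%, 12.7%, 4.04% and 13.95%. All samples but arsenic sample 4 lay between 7.52% and 13.95%, and the groups overlapped. The means were 10.5% ± 1.78 and 10.7% ± 3.86 (SD, n = 5 each; exact permutation p = 0.929, two-sided; limma adjusted p = 0.976). The upstream stretch had 8.596% and 10.6% and the intron stretch 11.9% and 10.8% in the control and arsenic groups, and the CpG nearest the start, 382 bases before it, 7.86% and 10.7%. Among 13380 other promoters with at least 3 CpGs, those of Prok2 (Pearson r = 0.946) and Alox15 (r = 0.935) ran most like that of Insl3 over the 10 samples, given as a description of these libraries. Both lay low, from 1.16% to 6.34% (Prok2) and from 0.775% to 2.61% (Alox15). They were picked as the highest of many correlations, and no test was made.

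Inha (chr1:75507077-75510366) changed level sharply along its promoter window. The 26 CpGs of the upstream stretch, 997 to 887 bases before the start, had 0.467% ± 0.668 in the control and 2.16% ± 3.06 in the arsenic group. The 8 CpGs of the coding stretch printed above had 33.4% ± 10.6 and 34.0% ± 7.98 (SD, n = 5 each). Every sample had at least 23.0% in the coding stretch and at most 7.40% in the upstream stretch, which also lies inside Obsl1. The CpG nearest the start, the first of the coding stretch, had 36.1% and 23.8%. In the last coding exon 11 CpGs had 11.1% ± 3.94 and 8.34% ± 1.56, and the single CpG of the upstream part ranged from 0 to 6.67%.

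**Figure D2:**
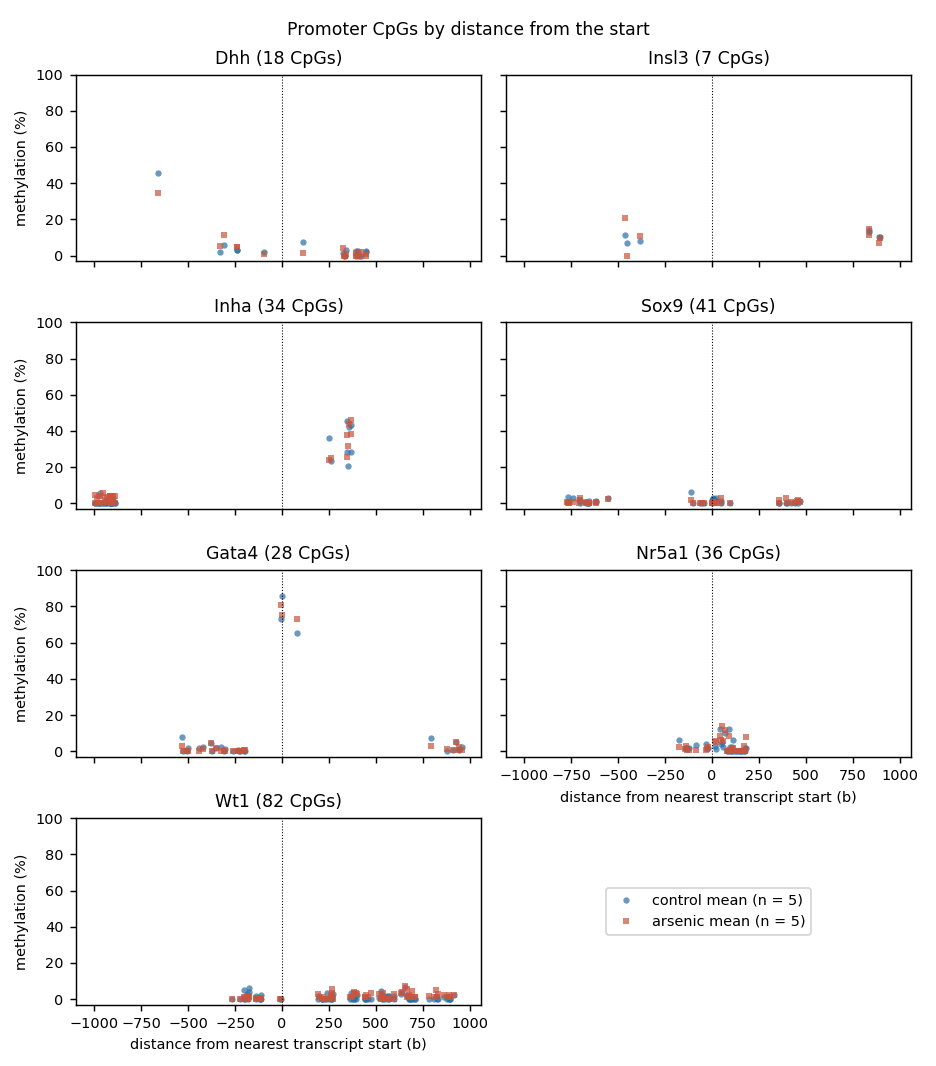
Methylation (%) of every promoter CpG, by distance in bases from the nearest transcript start (dotted line), as the mean of the control (circles, n = 5) and arsenic (squares, n = 5) samples. Most CpGs lie near 0, and the highest are those of the coding stretch of Inha, a CpG upstream of Dhh and the 3 CpGs at the innermost start of Gata4.

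The transcription factor genes were unmethylated around their main starts and differed from each other in their bodies. Over the 7 members with a promoter CpG, 135 of 150 CpGs within 500 bases of a start were under 10%, and the 15 others belonged to Inha (8), Gata4 (3), Nr5a1 (3) and Insl3 (1). At Sox9 (chr11:112782224-112787760) all 51 CpGs were under 10% over the 10 samples, promoter and coding CpGs alike. Its promoter had 1.04% ± 0.744 and 0.651% ± 0.185 in the control and arsenic groups, and the CpG at the base before the start 1.60% and 0. The 9 coding CpGs 1682 to 1780 bases after the start had 0.393% ± 0.617 in the control and 2.26% ± 2.52 in the arsenic group (exact permutation p = 0.0794, two-sided; limma unadjusted p = 0.0416, adjusted p = 0.661). Arsenic sample 3 had 6.62% there and the other 4 arsenic samples 0.463% to 2.15%, and the difference of 1.87 points was 0.782 without that sample. The single CpG of the Sox9 upstream part ranged from 0 to 40.0%, with 2.00% ± 4.47 in the control and 12.1% ± 16.5 in the arsenic group. The 40.0% was 4 of 10 reads in arsenic sample 5, and the difference of 10.1 points was 3.12 without that sample.

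Gata4 (chr14:63198922-63271692, minus strand) held 214 CpGs over its long record and the widest range of levels. The 5′ end of the record is that of a longer transcript model, and the starts of the basic set lie inside it. The CpGs 531 to 199 bases before the paired main starts had 1.33% and 0.725%, and 56 CpGs from 3426 to 4280 bases after them 2.91% and 1.87% in the control and arsenic groups. At the innermost start, of a short transcript, 3 CpGs had 74.8% ± 12.2 and 76.2% ± 9.25, including the CpG 2 bases before it with 85.7% and 75.3%. The level was therefore near 0 by the main starts and high at the innermost start, with a patchy course between and beyond them. Between the 56 CpGs and the innermost start, intron runs ranged from 21.8% to 80.7% over all samples. Beyond the innermost start they ranged from 30.4% to 83.8%. The highest of these, 10783 to 11126 bases after that start, had 85.7% ± 4.43 in the control and 82.0% ± 3.85 in the arsenic group. Toward the 5′ end of the record the levels were intermediate, at 19.1% and 17.9% over 21 CpGs in the intron 10478 to 10080 bases before the main starts, apart from 9 CpGs close to the 5′ end with 0.982% and 1.06%.

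**Figure D3:**
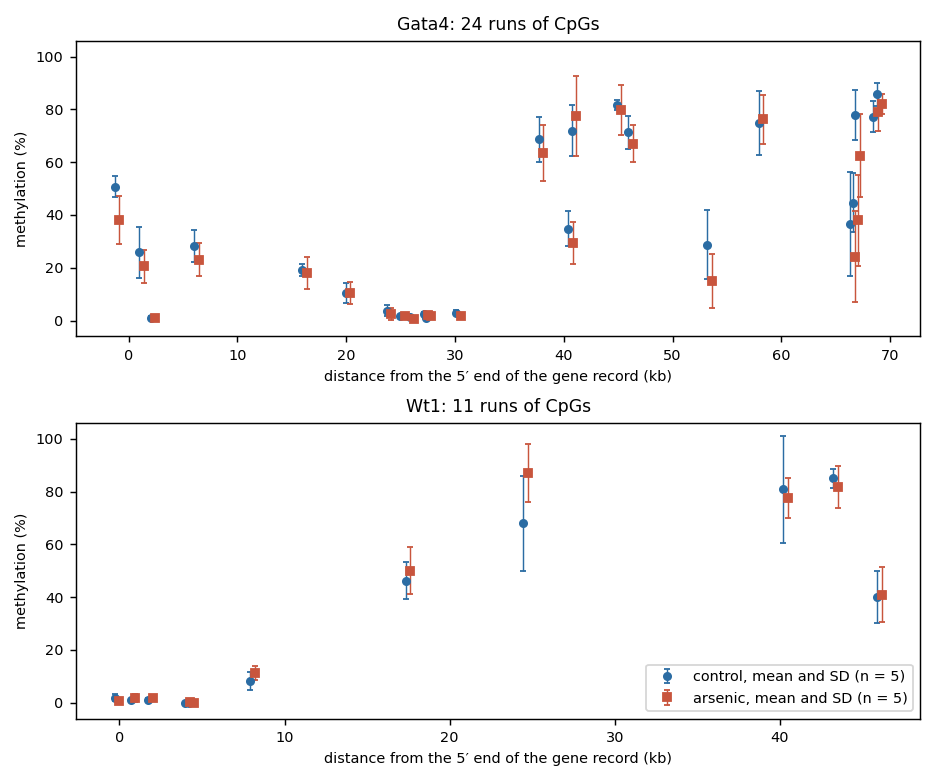
Methylation (%) of runs of neighbouring CpGs (gaps of up to 150 bases) in Gata4 and Wt1, as mean and SD of the control (circles) and arsenic (squares) samples (n = 5 each), by distance in kb from the 5′ end of the gene record. In both genes the runs around the main starts lie near 0 and the far introns lie mostly above 60%, and the SD bars of the groups overlap in most runs.

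The Gata4 upstream part had the largest difference among the member parts with at least 2 CpGs. It lies before the 5′ end of the longer model, and its sequence, with that of an intron run that also held differentially methylated CpGs (DMCs), is shown here on the gene strand with the table's CpG sites in capitals.
Gata4, upstream, chr14:63272642-63272905, minus strand: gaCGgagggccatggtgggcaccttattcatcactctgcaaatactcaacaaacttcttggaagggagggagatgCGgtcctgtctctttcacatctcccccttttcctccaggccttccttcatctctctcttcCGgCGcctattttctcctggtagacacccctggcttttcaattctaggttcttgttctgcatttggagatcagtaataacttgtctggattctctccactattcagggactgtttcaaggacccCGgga
Gata4, intron, chr14:63218242-63218311, minus strand: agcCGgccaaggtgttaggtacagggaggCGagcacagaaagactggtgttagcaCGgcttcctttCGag
Over the 7 upstream CpGs, control samples 1 to 5 had 55.3%, 52.6%, 51.6%, 44.9% and 49.0%. The arsenic samples had, in the same order, 27.5%, 37.0%, 49.6%, 31.3% and 44.3%. All arsenic samples lay under the control mean, and arsenic sample 3 overlapped the control range. The means were 50.7% ± 3.92 and 37.9% ± 9.10 (SD, n = 5 each), a difference of -12.7 points (exact permutation p = 0.0317, two-sided; limma unadjusted p = 0.0113). Over all parts tested the limma adjusted p was 0.66, so the part was not called. Without arsenic sample 1, the sample with the lowest germline promoter level, the difference was -10.1 points.

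The Gata4 body differed by less but with little spread. Control samples 1 to 5 had 21.6%, 21.1%, 19.6%, 20.9% and 20.7% over the 179 CpGs. Arsenic samples 1 to 5 had 17.8%, 18.1%, 20.3%, 18.9% and 19.8%. Arsenic samples 3 and 5 overlapped the control range through control sample 3. The means of 20.8% ± 0.77 and 18.97% ± 1.06 differed by -1.81 points (exact permutation p = 0.0238, two-sided). With limma the unadjusted p was 0.117 and the adjusted p 0.705. The mean level of all CpGs in the table was also lowest in arsenic sample 1, at 42.1% beside 45.2% to 47.3% in the other 9 samples.

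Nr5a1 (chr2:38692656-38714542, minus strand), which encodes steroidogenic factor 1, joined an unmethylated promoter to a methylated body. The 29 CpGs around its inner start had 1.69% and 1.33% and the 7 CpGs just after its outer start 5.78% and 7.58%, with 2.92% and 5.89% at the CpG 18 bases after that start. Over the 17 body CpGs, all intronic, control samples 1 to 5 had 82.4%, 80.8%, 81.4%, 75.3% and 80.2%. In the arsenic group the samples had 75.7%, 76.1%, 79.1%, 79.9% and 74.6%. The groups overlapped through control sample 4, and the means were 80.0% ± 2.78 and 77.1% ± 2.29 (SD, n = 5 each; exact permutation p = 0.0873, two-sided; limma adjusted p = 0.705).

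Wt1 (chr2:105126529-105173616), the Wilms tumour suppressor gene, was near 0 at its starts and had higher levels farther into the gene, up to its 3′ end. Its 64 CpGs from 191 to 917 bases after a start had 0.85% and 1.78% in the control and arsenic groups, and the intron run 3563 to 3851 bases after the innermost start 8.18% and 11.2%. The run 13043 to 13212 bases after that start had 46.2% and 49.9%, and the run at an exon 38976 to 39088 bases after it 85.0% and 81.7%. The last run, 5 CpGs of the 3′ untranslated region 41629 to 41762 bases after that start, was lower again at 40.2% and 40.9%. The CpG sites nearest a start, 10 to 3 bases before the innermost start, had no methylated call. There were 214 calls in the control and 277 in the arsenic group, summed over 2 CpGs. Taken as independent, these calls allow a level of up to 1.40% and 1.08%. A read over both CpGs counts at each, so the true limits can be higher.

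Over the 72 Wt1 body CpGs, control samples 1 to 5 had 25.0%, 28.2%, 21.8%, 22.4% and 22.7%. Arsenic samples 1 to 5 had 21.3%, 24.2%, 25.7%, 28.5% and 27.8%. The highest and lowest samples of both groups lay side by side, with means of 24.0% ± 2.65 and 25.5% ± 2.90 (SD, n = 5 each; exact permutation p = 0.437, two-sided; limma adjusted p = 0.856).

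The covered parts of the steroidogenic genes were highly methylated, as was the Nr5a1 body. At Star (chr8:25806555-25815982), 10 of 11 CpGs lay in the 3′ untranslated region, at 83.2% ± 3.44 in the control and 84.8% ± 3.00 in the arsenic group. The other was a coding CpG 1053 bases after the start, with 30.8% ± 17.96 and 32.2% ± 17.9. Over the 11 CpGs, control samples 1 to 5 had 78.1%, 74.8%, 83.7%, 75.5% and 79.9%. The 5 arsenic samples had 78.4%, 78.5%, 86.5%, 75.3% and 81.3%. The groups overlapped over most of their range (exact permutation p = 0.524, two-sided; limma adjusted p = 0.879).

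At Cyp11a1 (chr9:58006411-58027023) the levels in an intron of the longer transcript model alternated over a short distance. The stretch that shows this is printed on the plus strand, with the table's CpG sites in capitals.
Cyp11a1, intron, chr9:58011829-58012060, plus strand: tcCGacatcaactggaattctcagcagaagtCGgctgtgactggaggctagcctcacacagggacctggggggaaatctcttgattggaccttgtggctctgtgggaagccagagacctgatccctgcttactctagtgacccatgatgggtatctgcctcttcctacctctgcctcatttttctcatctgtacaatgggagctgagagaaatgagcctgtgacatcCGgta
The first 2 CpG sites of the stretch, 2839 and 2810 bases before the start of the basic set, had 13.7% ± 7.22 in the control and 10.2% ± 5.29 in the arsenic group, whereas its last site, 2614 bases before the start, had 84.2% ± 11.5 and 71.5% ± 14.5 (SD, n = 5 each). The first sites ranged from 5.00% to 25.0% and the last from 46.2% to 94.1%, so no sample of either group overlapped between them. Further runs of the body had 85.6% and 88.3% 4027 to 3985 bases before the start, 47.7% and 46.5% 3142 to 3299 bases after it, and 91.3% and 92.3% at 3 coding CpGs.

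Over the 21 Cyp11a1 body CpGs, control samples 1 to 5 had 72.6%, 72.2%, 70.6%, 71.0% and 77.8%. In the arsenic group the samples had 66.3%, 74.6%, 76.0%, 73.2% and 70.7%. The groups overlapped, arsenic sample 1 being lowest and control sample 5 highest, with means of 72.8% ± 2.89 and 72.2% ± 3.83 (SD, n = 5 each; exact permutation p = 0.778, two-sided; limma adjusted p = 0.952).

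Beside the bodies of other genes, those of the members were low. The median of the 9 bodies was 19.9%, with 4 of 9 (Amh, Dhh, Inha and Sox9) under 10%, against a median of 71.0% and 5.05% under 10% over all 14640 bodies. Of the 705 CpGs, promoter CpGs included, 74.5% were under 10%, against 34.3% of the table, which also holds CpGs outside genes. The members' mean level was 15.5% against 45.6% in the table. Body levels fell with the number of CpG sites around each CpG, and its share in the lower levels of the members was not tested. In bodies with 1 to 4 reference sites within 100 bases either side, the members' CpGs averaged 62.9% (n = 80) and those of all protein-coding genes 71.2% (n = 193038). At 5 to 9 sites the means were 26.4% (n = 151) and 64.5% (n = 221123), and at 10 to 14 sites 3.69% (n = 95) and 47.3% (n = 59273). At 15 sites or more they were 2.18% (n = 124) and 11.6% (n = 39782). The members' means lay lower at each density, with the widest gap at 10 to 14 sites, where 88.4% of their CpGs and 32.0% of all body CpGs were under 10%. At 15 sites or more the medians were in the other order, at 1.69% and 1.14%. CpGs of the same gene are not independent, and these shares are descriptions with no test.

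**Figure D4:**
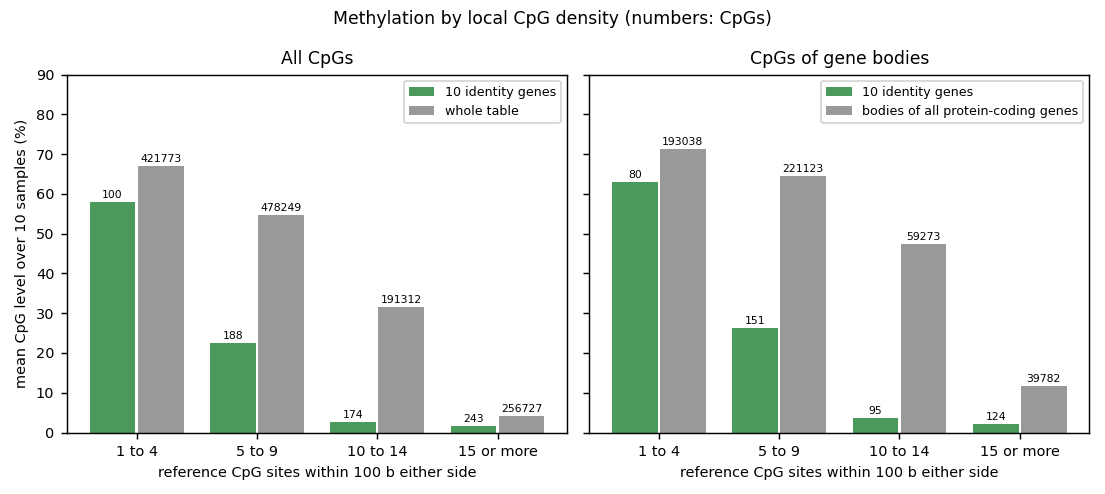
Mean CpG level (%) over the 10 samples by the number of reference CpG sites within 100 bases either side, for the 10 identity genes (green) and the comparison set (grey), with the number of CpGs above each bar; left, all CpGs against the whole table, right, body CpGs against the bodies of all protein-coding genes. The members' means lie lower in every bin, and in bodies the gap is widest at 10 to 14 sites (3.69% and 47.3%).

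The comparison of the arsenic with the control group asked whether gestational exposure moved methylation at these genes. None of the 19 parts passed limma's test at an adjusted p of 0.05 over all 31869 gene parts, as did none of all parts (0.0%). The smallest adjusted p was 0.66 among the members and 0.21 over all parts. At an unadjusted limma p under 0.05 there were 2 member parts (Gata4 upstream and Sox9 body), beside 7.47% of all parts. The arsenic mean was higher in 10 of 19 member parts and in 43.4% of all parts. Among bodies it was higher in 5 of 9 members and in 32.2% of all, where the median difference was -1.13 points. No member part had groups that did not overlap, beside 0.351% of all parts with every arsenic sample higher and 1.21% with every arsenic sample lower.

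Single CpGs were compared by logistic regression on reads, with a q of at most 0.01 and a pooled difference of at least 10 points for a DMC. Over all CpGs, 1.48% were hypoDMCs, lower in the arsenic group, and 0.784% hyperDMCs. These shares rested in part on single samples, being 1.11% and 1.35% without arsenic sample 1, and 1.39% and 0.438% without arsenic sample 5. The members held 6 hypoDMCs (4 in Gata4, 1 in Nr5a1 and 1 in Wt1) and 1 hyperDMC (in Wt1) among 705 CpGs, or 0.993% together against 2.27% of all CpGs. Among CpGs with a level of 10% to 90%, where a change of 10 points is possible in both directions, the share was 6 of 160 for the members (3.75%) and 3.73% for the table. This regression counts reads and takes no account of the spread between samples. With limma per CpG, which does, the members' DMCs had adjusted p of at least 0.83, and 0.0% of the table was called, with 46 member CpGs (6.52%) at an unadjusted p under 0.05, beside 6.0% of all CpGs.

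The largest pooled difference among the members was at chr14:63272902-63272902, at the 5′ end of the Gata4 upstream stretch printed above. Control samples 1 to 5 had 68.8%, 66.7%, 41.9%, 44.7% and 56.0% there. The arsenic samples had, in the same order, 5.71%, 31.7%, 37.5%, 26.0% and 53.8%. Arsenic sample 5 lay within the control range, and arsenic sample 1 far under the others (pooled difference -21.8 points, logistic regression q = 0.00286; limma adjusted p = 0.83). A further Gata4 hypoDMC, at position 63218282 in the printed intron stretch, had 29.2% ± 13.3 in the control and 13.7% ± 7.68 in the arsenic group (SD, n = 5 each), with control sample 3 at 8.89%. The remaining Gata4 hypoDMCs lay in the same stretches. The Nr5a1 hypoDMC, in an intron at position 38696103, had 39.5% ± 15.7 and 24.5% ± 11.2.

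The Wt1 DMCs lay in introns, and each had groups that did not overlap. Their surroundings are printed on the plus strand, with the table's CpG sites in capitals.
Wt1, hyperDMC at the 16th base, chr2:105134431-105134461, plus strand: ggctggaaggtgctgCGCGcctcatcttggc
Wt1, hypoDMC at the 16th base, chr2:105169883-105169913, plus strand: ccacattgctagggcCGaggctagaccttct
At the hyperDMC, control samples 1 to 5 had 0, 0, 8.33%, 0 and 0, and arsenic samples 1 to 5 had 21.4%, 13.0%, 13.3%, 25.0% and 15.4%, at a coverage of 10 to 44 reads. The cytosine on the other strand of the same site, with at least 44 reads, had 7.84% ± 4.33 in the control and 11.5% ± 4.79 in the arsenic group (pooled difference 2.91 points, logistic regression q = 0.424). At the hypoDMC, control samples 1 to 5 had 93.8%, 87.5%, 81.2%, 100% and 90.5%, and arsenic samples 1 to 5 had 72.7%, 72.8%, 80.0%, 71.8% and 80.0%. Its other strand had 80.2% ± 8.85 and 78.7% ± 7.22 (pooled difference -2.35 points, q = 0.778). In both cases the difference was on the plus-strand cytosine and did not pass on the other strand, and the other 5 member DMCs had no other strand among the deposited CpGs. In all, 1 member CpG had every arsenic sample higher and 2 had every arsenic sample lower, the further being a Sox9 promoter CpG with 6.23% and 2.07%, beside 0.219% and 0.474% of all CpGs.

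The germline promoter level differed from sample to sample, and the member parts were set against it over the 10 samples. Of 31846 parts, 0.248% (79 parts, all rising with it) passed limma's test at an adjusted p of 0.05, and none of the 19 member parts did, their smallest adjusted p being 0.116. For the 7 parts of intermediate level, Pearson's r ranged from -0.259 (Nr5a1 body) to 0.533 (Wt1 body). The Wt1 body had a permutation p of 0.110 and Spearman's rho of 0.479 (permutation p = 0.165), and r fell to 0.102 without arsenic samples 1 and 5, which lay farthest from the median germline level. The Gata4 upstream part had r = 0.0964 (permutation p = 0.786) and rho = -0.297 (permutation p = 0.408), and r = -0.745 without those samples. The other 5 parts then had r of -0.610 (Gata4 body) to 0.238 (Cyp11a1 body). Without those samples, germline levels were 51.6% to 56.88% in the control and 56.91% to 60.5% in the arsenic group. An r over the remaining samples can therefore not be told apart from the group difference. Over all 10 samples, the other 5 relations had permutation p of 0.344 to 0.888 for r. With 7 relations computed, no adjustment over these alone is given, and the limma adjusted p over all parts was 0.544 for the Wt1 body and 0.942 for Gata4 upstream.

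**Figure D5:**
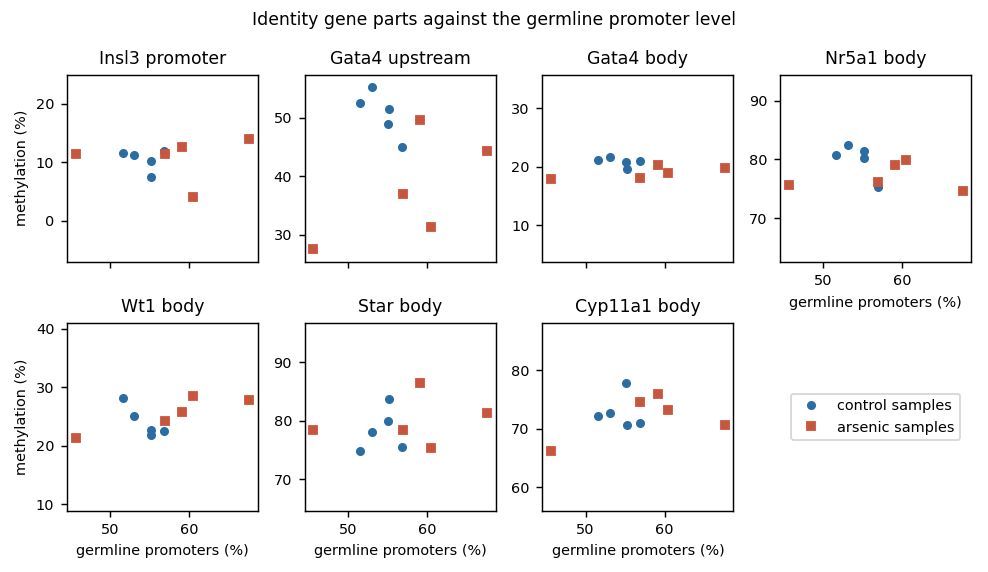
Methylation (%) of the 7 member parts of intermediate level against the mean level (%) of the germline promoters, a point per sample (circles, control; squares, arsenic), with vertical axes of equal span. Arsenic samples 1 (45.7%) and 5 (67.6%) lie at the ends of the horizontal axis, and no part follows it closely across the 10 samples, the Wt1 body having the highest r (0.533).

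The promoters of other genes of these cells were mostly low as well, beside a median of 1.63% over all promoters. Of 14 further Sertoli genes, 11 had a promoter CpG, with levels from 0.752% (Kitl, the ligand of the germ cell receptor Kit) to 52.6% (Fshr, the receptor for follicle-stimulating hormone) and a median of 1.48%, and the largest group difference was at Cldn11 (20.4% ± 7.88 and 24.5% ± 5.82), a tight junction gene. Of 14 further Leydig genes, 9 had one, with a median of 1.17% and the highest level at Scarb1, a lipoprotein receptor (11.0%), Prlr differing most (3.42% ± 2.87 and 1.58% ± 1.02). Of 14 receptors and partners of the members, 13 had one, from 0.438% (Cited2) to 24.4% (Rxfp2, the receptor of INSL3) with a median of 0.849%, and Rxfp2 differed most, at 29.3% ± 11.1 and 19.6% ± 8.604 over 2 CpGs. None of the promoters in these lists passed limma's test, as none of all parts did. Among markers of other cells, 5 of 6 peritubular and interstitial genes had a promoter CpG, with levels of 1.10% to 5.39%. In 3 of 6 endothelial genes the levels were 4.04% to 89.5%, on 3 or 4 CpGs each. In 2 of 6 macrophage and blood genes they were 16.1%, on 1 CpG that ranged from 0 to 46.2% over the samples, and 85.7%, on 6 CpGs.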

How the data were processed

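Reduced representation bisulfite sequencing of 5 control and 5 arsenic pools was analysed from the deposited table of counts, in which the authors give the coverage and the counts of methylated (C) and unmethylated (T) reads per CpG cytosine and sample. Per the labels, reads were trimmed with Trim Galore (0.6.5), aligned to mm10 with Bismark (0.22.3) and tabulated with methylKit (1.22.0), strands apart, with at least 10 reads in every sample. Handling of duplicate reads and overlapping mates is not given in the sources used here, and reads counted more than once would make the q values of single CpGs too small. Of 1349101 entries, the 1348062 on the numbered chromosomes and X and Y entered the analysis, and 1039 on other sequences were left out. Of those used, 99.99% fell on a CpG of GRCm38.

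Levels were averaged per gene part (GENCODE M21). Group differences were tested with limma (3.58.1, R 4.3.3; trended variance) on log2((p + 0.01)/(1 - p + 0.01)) over the 31869 parts of protein-coding genes, and by an exact permutation test over 252 assignments, whose smallest two-sided p is 0.00794. Single CpGs were tested by logistic regression on reads with Benjamini-Hochberg q values. Scripts were tested on simulated data. The labels do not say that the pools share no mother, so p-values measure the spread between these pools. Replicate numbers did not pair samples. The members and gene lists were chosen with earlier results of these data known. Named were all members with each part, per-sample values for parts of 10% to 90% with at least 2 CpGs, up to 2 DMCs per member, the promoter CpG nearest a start, the 2 promoters most like a member promoter of intermediate level, and up to 3 genes per further list (the lowest Leydig promoter is not reported here). A Sox9 promoter CpG was added after its values were seen. Per the methods of the study, a further arsenic pool of low depth was set aside by the authors and is not analysed here. Alternatives covered coverage, strands, promoter windows, weighting, scale, overlapping genes, the block and leaving out each sample, and starts of every annotated transcript were added after seeing the data.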

Additional observations from a re-analysis of the deposited data

Results flagged for a closer look

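In 4 of 38 tests of the member parts (19 parts in each group), a single sample lay farther from the rest of its group than Dixon's 95% critical value for 5 samples allows, where chance gives about 1 in 20. The Insl3 promoter of arsenic sample 4 had 4.04%, beside 11.3% to 13.95% in the other arsenic samples. The single upstream CpG of Sox9 had 10% in control sample 3 and 0 in the other control samples, which is 2 of 20 reads, and with the others all at 0 any methylated read would have met the criterion. The Sox9 body had 6.62% in arsenic sample 3, beside 0.463% to 2.15%. The Cyp11a1 body had 77.8% in control sample 5, beside 70.6% to 72.6%.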

How the results depend on the processing

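No member part was called under any alternative in which it could be tested, with each sample left out included. None was related to the germline promoter level with each sample left out, at least 20 reads, strands merged, other promoter windows or starts, other covariates, the group as a second term or the block. That relation was not recomputed with weighting, untransformed levels, at least 3 CpGs or overlapping genes left out. With at least 20 reads, the Amh body, the Insl3 promoter and the Sox9 upstream part had no CpG left. Without CpGs inside another gene, the Insl3 promoter and the Inha and Sox9 upstream parts had none. The minimum of 3 CpGs left out those upstream parts as well. The count of member DMCs moved with most alternatives. Leaving out each sample gave 1 to 8 hypoDMCs and 0 to 7 hyperDMCs, beside 6 and 1, while the shares over all CpGs ran from 1.11% to 1.87% and from 0.438% to 1.35%. The hypoDMC count was 1 without control sample 1 or arsenic sample 4, 2 without control sample 2 and 3 without arsenic sample 1. The hyperDMC count was 0 without arsenic sample 4, 2 without control sample 1, arsenic sample 3 or arsenic sample 5, 3 without control sample 3, 4 without control sample 2 or arsenic sample 1 and 7 (0.911% of all CpGs being hyperDMCs) without arsenic sample 2. With at least 20 reads everywhere (257 member CpGs) there were 5 and 0, beside 2.46% and 1.28% of all. With strands merged there were 5 and 0 of 551, beside 1.55% and 0.793%, with at least 20 points 1 and 0, beside 0.428% and 0.278%, and with limma per CpG or with an overdispersion F test 0 and 0, as over all CpGs. Replicate numbers did not pair the samples (correlations of deviations -0.05 to 0.0477), and with them as a replicate block 0 parts and 0 single CpGs of the members were called.

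Small differences changed sign. With at least 20 reads they were 2.35 points for the Dhh promoter, -1.21 for the Nr5a1 promoter, -0.231 for the Wt1 promoter and 1.43 for the Cyp11a1 body. With levels weighted by coverage they were -1.02 for the Inha promoter, -0.359 for the Nr5a1 promoter, -1.24 for the Insl3 promoter and 2.29 for the Cyp11a1 body. The Insl3 promoter had -0.0241 with strands merged, the Wt1 promoter -0.862 with a promoter from 1 kb upstream to 100 bases downstream, the Inha upstream part 1.61 and the Dhh promoter 0.0378 with 500 bases either side, and the Nr5a1 promoter -0.358 without CpGs inside another gene. With each sample left out the ranges that crossed 0 were -1.50 to 0.557 (Inha upstream), -0.813 to 0.0316 (Gata4 promoter), -0.312 to 0.516 (Nr5a1 promoter), -0.0329 to 2.93 (Star body), -0.637 to 1.84 (Insl3 promoter) and -1.65 to 0.782 (Cyp11a1 body). The cause was not tested. Gata4 upstream stayed lower in the arsenic group under every alternative, by -15.6 to -10.1 points with each sample left out. With the promoter set at the 5′ end of the gene record only, the Gata4 promoter difference was -12.4 points, beside -0.35. That window holds a single CpG, at position 63272645, which is a hypoDMC of the region reported as upstream. The value therefore repeats that CpG (43.4% in the control and 31.0% in the arsenic group) and describes no wider promoter.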
